A study of Mus musculus with 40 samples.

Results

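The acute phase response genes described here are Saa1, Saa2, Saa3, Orm1, Orm2, Hp, Crp, Lbp, Socs3 and Cebpd, 10 genes chosen by symbol. The table of normalized read counts held 9 of the 10 among its 20593 genes, and the expression of Orm2 was not analysed here. Of the 9, 7 passed the filter on low values, as did 15377 genes in all, while Saa1 and Saa2 did not and are described by their values alone.

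The acute phase response is the change in the proteins that the liver secretes early after infection or injury. Interleukin-6, interleukin-1 and tumour necrosis factor act on hepatocytes, and the transcription factors STAT3, NF-kB and C/EBP then raise genes of secreted proteins such as the serum amyloids and haptoglobin. In the fetus, hepatocytes share the liver with blood-forming cells, most of them of the red lineage, among which granulocyte precursors are also found.

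RNA was measured in liver of C57BL/6 mouse fetuses on day 18.5 of gestation, one library per fetus, in a study of excess folic acid and a high-fat maternal diet in male and female offspring. Dams were put on their diet 13 weeks before mating and stayed on it through pregnancy. WDF fetuses had dams on a western diet with 45% of energy from fat and 10 mg folic acid per kg, and WD fetuses had dams on the same fat content with 2 mg/kg. CDF dams ate a control diet with 10% of energy from fat and 10 mg/kg folic acid, and CD dams ate that control diet with 2 mg/kg. Each diet had 5 female (F) and 5 male (M) libraries, which made 8 groups. Dams and litters are not named in the labels, and fetuses of a group may be littermates, so the p-values rest on variation between fetuses alone.

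Of the 40 libraries, 38 were used. The other 2, CDF_F replicate 5 and CD_F replicate 4, are labelled as liver but had only 5278 and 7708 normalized counts of Alb, the albumin gene, against 641907 to 1496610 in the 38, and they had 67014 and 101239 of Sftpc, the gene of lung surfactant protein C. Totals of normalized counts in the 38 ran from about 15002000 to 27817000 with a median of 17006000, and the 9 members made up 0.1001 to 0.201% of them. Within the 38, CDF_F replicate 4 and CD_M replicate 4 stood apart, with the lowest Alb (658016 and 641907) and the highest share of ribosomal protein genes (7.19 and 5.54% against a median of 3.69%). Several results that rest on them, though not all, are given with and without them. Sftpc was over 1000 in 6 of the 38, highest in CD_F replicate 5 (30176) and CDF_F replicate 4 (24797). In whole-tissue RNA, fewer cells of a type and less RNA per cell cannot be told apart.

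The Saa genes, which code for the serum amyloid A proteins carried on high-density lipoprotein, were expressed very unequally, and their promoters are shown because Saa1 and Saa2, both near 0, also share nearly the same sequence. All 3 lie on chromosome 7 (mm10), with Saa3 at chr7:46711998-46715700 on the minus strand, Saa1 at chr7:46740497-46742980 on the minus strand and Saa2 at chr7:46751790-46754313 on the plus strand. The 250 bases before the RefSeq transcription start are given 5′ to 3′ on GRCm38.p6. They lie at chr7:46742981-46743230 for Saa1, chr7:46751583-46751832 for Saa2 and chr7:46715677-46715926 for Saa3. For Saa2 and Saa3 the RefSeq start lies inside the gene span given above, so the bases shown overlap that span. Capitals mark letters that match an NF-kB or a C/EBP motif.
Saa1: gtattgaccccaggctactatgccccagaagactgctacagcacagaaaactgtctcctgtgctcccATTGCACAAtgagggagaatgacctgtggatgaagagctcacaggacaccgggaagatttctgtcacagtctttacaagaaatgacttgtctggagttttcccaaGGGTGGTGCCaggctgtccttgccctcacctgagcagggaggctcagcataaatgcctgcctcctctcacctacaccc
Saa2: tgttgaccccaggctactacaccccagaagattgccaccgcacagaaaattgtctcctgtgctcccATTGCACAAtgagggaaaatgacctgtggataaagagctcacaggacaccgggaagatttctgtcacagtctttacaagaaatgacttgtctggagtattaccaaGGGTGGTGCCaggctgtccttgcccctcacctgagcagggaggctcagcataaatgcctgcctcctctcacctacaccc
Saa3: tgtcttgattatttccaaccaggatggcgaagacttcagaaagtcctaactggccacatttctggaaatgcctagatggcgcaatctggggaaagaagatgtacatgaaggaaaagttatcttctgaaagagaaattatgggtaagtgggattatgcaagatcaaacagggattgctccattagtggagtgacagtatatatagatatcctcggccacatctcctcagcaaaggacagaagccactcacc

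The windows from 250 bases before to 50 after the start of Saa1 and Saa2 were identical at 287 of 301 aligned positions (95.3%), whereas Saa3 matched Saa1 at 50.9% and Saa2 at 50.2%. Both strands were searched for the NF-kB motif, the C/EBP motif TTNNGNAAT, the STAT motif TTCNNNGAA and the acute phase element CTGGGAA. Counting the start base as 0, Saa1 had GGGTGGTGCC at -78 to -69 and ATTGCACAA at -183 to -175. Saa2 had the same letters at -79 to -70 and at -184 to -176. The Saa3 window held none of the 4 motifs. Of 32851 RefSeq windows of that length, 50.8% held the NF-kB letters, 11.5% the C/EBP letters, 8.30% the STAT letters and 11.1% the acute phase element, so a match describes the sequence and no more. Of the members, 6 had a RefSeq window. Crp had NF-kB and C/EBP letters, Socs3 had NF-kB and STAT letters, Orm2 had C/EBP letters, and no member had the acute phase element.

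Saa1 and Saa2, whose products are the circulating acute phase forms made by adult mouse liver, were almost silent. Saa1 was listed at 0 in 17 of 38 libraries and reached 4.26 normalized counts, with a median of 0.590. Saa2 was listed at 0 in 25 of 38 libraries and reached 4.11. The highest group means were 1.90 ± 1.57 for Saa1 in WD_F and 1.29 ± 1.69 for Saa2 in CDF_M (SD, n = 5), and neither group was free of libraries at 0. Principal transcripts of Saa1 and Saa2 are identical at 87.3% of aligned bases, so how reads were divided between them is uncertain, whereas Saa3 shares 62.2% with Saa1 and 61.6% with Saa2.

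Saa3, the serum amyloid gene that mice also express in macrophages and outside the liver, was present in every library with a median of 459 normalized counts. It was the most variable of the tested members, with values from 55.1 in WD_M replicate 5 to 2503 in CDF_F replicate 4, a 45.5-fold range, and a coefficient of variation of 78.3%. Without CDF_F replicate 4, which stood apart, its highest value was 1328.5, the range 24.1-fold and the coefficient of variation 60.9%. Orm1 followed at 52.0%, or 47.1% without that library, and the other 5 lay between 18.6% for Lbp and 30.4% for Hp.

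As levels per kb of principal transcript, the median normalized count was 13224 for Hp, 2832 for Crp, 876 for Lbp, 827 for Saa3, 60.3 for Cebpd, 58.3 for Socs3 and 27.5 for Orm1. On this scale Hp lay above Crp, and Crp above Lbp, in 38 of 38 libraries without overlap of their ranges. Saa3 lay above Crp in 1 of 38, CDF_F replicate 4. Neighbours in the middle of the order were not separated, since Lbp exceeded Saa3 in 20 of 38 libraries and Cebpd exceeded Socs3 in 17 of 38. Socs3 exceeded Orm1 in 36 of 38. The place of Saa3 depends on the transcript length, because over the union of its exons its level was 176 per kb against 670 per kb for Lbp. Among all tested genes the median normalized count, not corrected for length, put Hp at percentile 99.5, Crp at 97.7, Lbp at 94.3, Saa3 at 70.3, Cebpd at 51.7, Socs3 at 42.1 and Orm1 at 16.4.

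**Figure D1:**
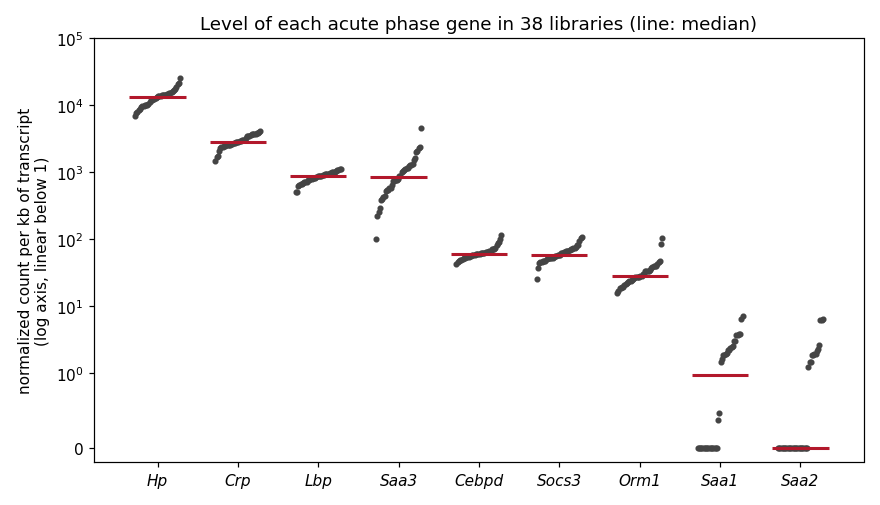
Level of each acute phase gene as normalized count per kb of principal transcript, on a log axis that is linear below 1. Each point is a library (38 per gene) and each line a median; the medians of Hp and Crp lie above those of the other members, the highest Saa3 point (4511, CDF_F replicate 4) lies above every Crp point, and Saa1 and Saa2 lie at or near 0.

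Fetal liver contained abundant haptoglobin and C-reactive protein messages beside almost no Saa1 or Saa2, in every diet group and in both sexes. Differences between groups were tested for the 7 members in 13 comparisons with limma on log2(normalized count + 1), with p-values adjusted over all 15377 genes. None of the 7 passed an adjusted p of 0.05 in any comparison. Across all genes 0% were called in 11 of the comparisons, 0.0455% (7 genes) in the western diet effect averaged over folic acid dose and sex, and 0.0585% (9 genes) between female and male fetuses. The differences below are those with an unadjusted p under 0.05, or the smallest p where there was none. Those in each diet given beside the male interaction are an exception. The differences are set against the share of all genes that reached the same limit.

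**Figure D2:**
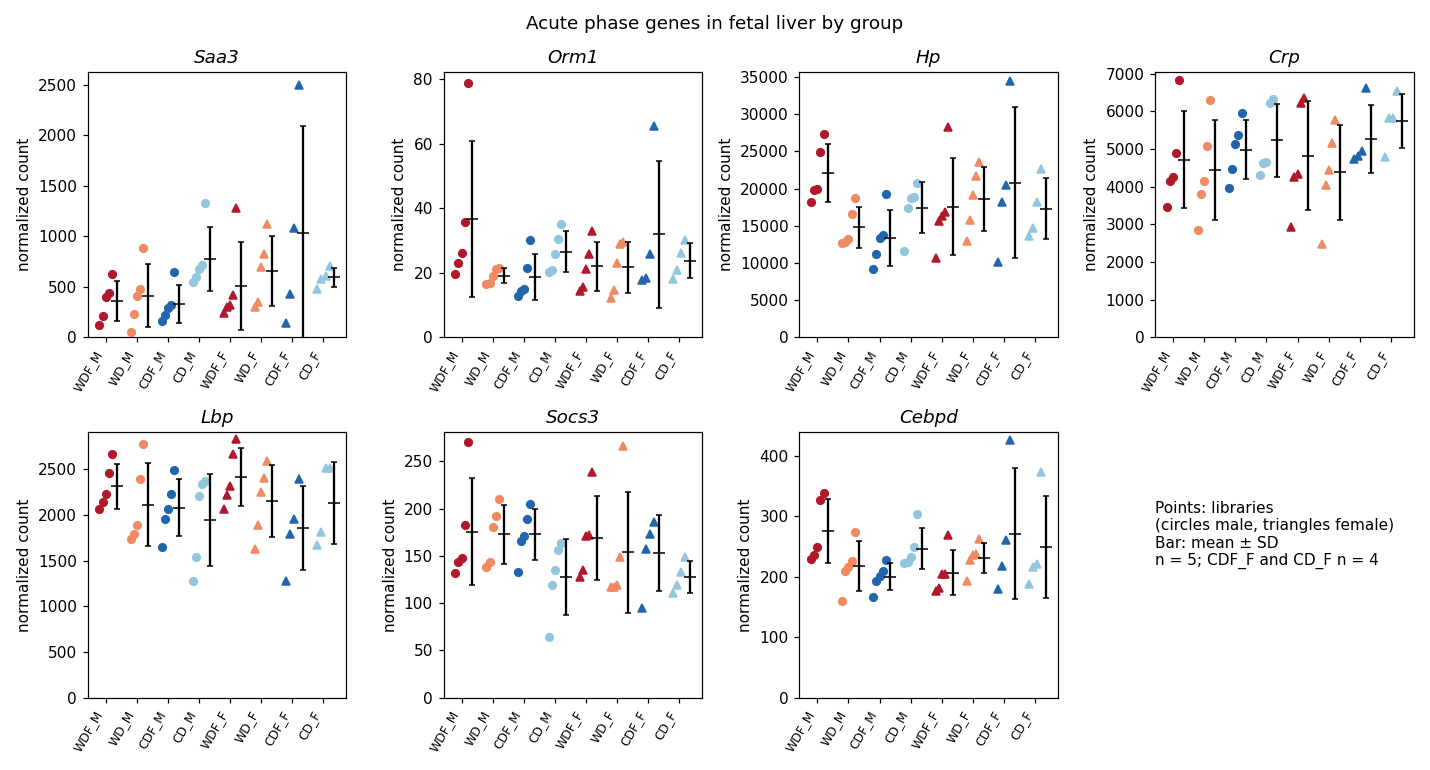
Normalized counts of the 7 tested members by group, with male libraries as circles and female libraries as triangles. Points are single libraries and bars the mean ± SD, n = 5 per group and n = 4 in CDF_F and CD_F; the WDF_M points for Hp sit between 18205 and 27388, and the spread of Saa3 is wide in most groups.

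Male fetuses of western diet dams given the high folic acid dose had the highest mean counts of Hp, Orm1 and Cebpd among the 4 male groups, although none of the 3 genes passed the adjusted threshold. For Orm1 this rank rests on replicate 5, without which its mean was 26.20 in WDF_M, against 26.55 in CD_M. Hp codes for haptoglobin, the plasma protein that binds free haemoglobin (chr8:109575128-109579172, minus strand). Its normalized counts in the 5 WDF_M livers were 19933, 24922, 27388, 19852 and 18205. In WD_M livers they were 18690.4, 13195, 12777, 12666 and 16549.8, in CDF_M livers 13711, 11156, 19332, 9226 and 13299, and in CD_M livers 17367, 18667, 11627, 18851.5 and 20739.5. The WDF_M values lay high and overlapped those of WD_M and of CDF_M through 1 library each, whereas 3 of 5 CD_M livers were higher than the lowest WDF_M liver. Hp was 0.58 ± 0.25 higher on the log2 scale in WDF_M than in WD_M (SE, 95% interval 0.07 to 1.08, limma adjusted p = 0.523) and 0.75 ± 0.25 higher in WDF_M than in CDF_M (interval 0.25 to 1.26, adjusted p = 0.520).

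Orm1 codes for orosomucoid, an acidic glycoprotein of plasma (chr4:63344560-63348163, plus strand), and its counts were low. They were 23.2, 35.8, 19.5, 26.2 and 78.8 in WDF_M livers, against 19.1, 16.7, 21.6, 16.8 and 21.3 in WD_M livers. CDF_M livers ranged from 12.9 to 30.2 with a median of 15.04, and CD_M livers from 20.4 to 35.1 with a median of 25.9. Replicate 5 of WDF_M stood far above the rest, and the other 4 overlapped both WD_M and CDF_M. The log2 difference was 0.73 ± 0.33 for WDF_M over WD_M (SE, limma adjusted p = 0.543) and 0.81 ± 0.33 for WDF_M over CDF_M (adjusted p = 0.675). Without that replicate the value was 0.41 over WD_M (limma adjusted p = 0.758) and 0.49 over CDF_M (limma adjusted p = 0.794), and neither stayed under an unadjusted p of 0.05. Orm2 is a close copy of Orm1, so how reads were divided between the 2 genes is uncertain.

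Cebpd codes for C/EBP-delta, a transcription factor of acute phase promoters that is itself induced by inflammatory cytokines (chr16:15887286-15891031, plus strand). Its counts were 229, 327, 338, 236 and 249.5 in WDF_M livers, against 210.4, 228, 193, 167 and 201 in CDF_M livers. Every WDF_M library lay above every CDF_M library, although the nearest values, 229.2 and 228.3, were almost equal. Across all genes 1.03% were separated in this direction between these 2 groups, and Cebpd was the single member that was. The log2 difference was 0.45 ± 0.19 (SE, limma adjusted p = 0.675). WD_M livers spanned 159 to 275 and CD_M livers 223 to 304, and both overlapped WDF_M.

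In counts, 3 of 7 members reached an unadjusted p under 0.05 in WDF_M against CDF_M, where 6.9% of all genes did, and 2 of 7 in WDF_M against WD_M, where 8.81% did. Without WDF_M replicate 5 these counts were 2 and 1. Both comparisons use the same WDF_M libraries, so their members are not separate observations. The male interaction asks whether high folic acid moved a gene differently under the western than under the control diet, and it draws on all 4 male groups. It was 0.98 ± 0.35 for Hp (SE, limma adjusted p = 0.340), 1.243 ± 0.47 for Orm1 (adjusted p = 0.353; 0.93 without WDF_M replicate 5) and 0.64 ± 0.26 for Cebpd (adjusted p = 0.360). These were 3 of 7 members, where 12.3% of all genes reached that limit. Their folic acid differences had opposite signs in the 2 diets: 0.58 under the western and -0.40 under the control diet for Hp, 0.73 and -0.52 for Orm1, and 0.34 and -0.30 for Cebpd.

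Signals of other cells and of library composition also differed between the male groups. The summed level of 14 neutrophil and granulocyte precursor markers ran from 49093 to 69638 in WDF_M, from 36599 to 69984 in WD_M, from 39344 to 54283 in CDF_M and from 55543 to 96117 in CD_M. Of the 14 markers, 13 were higher in WDF_M than in CDF_M (median log2 difference 0.28) and 12 were higher in WDF_M than in WD_M (0.14), against a median of 0.01 over all genes in both. None of the 14 was at 0 throughout a male group. All 10 tested skeletal muscle markers were higher in WDF_M in both comparisons (median 0.61 over CDF_M and 0.73 over WD_M). Of 13 tested hepatocyte markers, 10 were higher in WDF_M than in WD_M (median 0.07), and 6 were higher than in CDF_M (-0.01). Of 12 erythroid markers, 2 were higher in WDF_M than in WD_M (median -0.18), and 6 were higher than in CDF_M (0.02). In WDF_M against CDF_M, 2 neutrophil, 1 muscle, 2 hepatocyte and 0 erythroid markers reached an unadjusted limma p under 0.05. In WDF_M against WD_M these counts were 0, 0, 3 and 1. Of all genes, 6.9 and 8.81% reached that limit in these 2 comparisons. Malat1, a nuclear RNA, had a median of 14825 normalized counts in WDF_M, against 5089.6 in WD_M, 4975 in CDF_M and 7032 in CD_M. Within males, with log2 values centred on group means, Malat1 had r = 0.09 with Hp, 0.26 with Orm1 and 0.44 with Cebpd. The mean neutrophil marker level had r = 0.54 with Hp, 0.16 with Orm1 and 0.69 with Cebpd. Of 12 lung epithelium markers, 11 were higher in WDF_M than in CDF_M (median log2 difference 1.53) and 11 were higher than in WD_M (1.73). None of the 12 reached an unadjusted limma p under 0.05. The sum of these 12 markers had a median of 1025 in WDF_M with a highest value of 9997, in replicate 2. Highest values were 1145 in WD_M, 7156 in CD_M and 1081 in CDF_M, where Scgb1a1 and Nkx2-1 were at 0 in all 5 libraries. Without the libraries with more than 1000 counts of Sftpc, which leaves 32, the Hp difference was 0.53 over WD_M and 0.70 over CDF_M. The part of any of these cells, hepatocytes and granulocyte precursors included, or of Malat1-rich RNA in the results was not tested.

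The authors' own table of high against low folic acid in western diet males did call haptoglobin. The authors' deposited table lists Hp with a log2 fold change of 0.47 and an adjusted p of 0.0394, as 1 of 203 genes called out of 18355. The authors' fold changes are not on the scale of the limma differences. For Orm1 the authors list 0.09 in this comparison, where the limma difference was 0.73. In the authors' deposited table Orm1 had an adjusted p of 0.246, Cebpd of 0.393, Lbp of 0.774, Crp of 0.909, Saa3 of 0.934 and Socs3 of 0.985. The authors' deposited tables for females list no member below an adjusted p of 0.05.

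In females, Hp, Orm1 and Cebpd did not reach an unadjusted p of 0.05 in any comparison. Hp counts in WDF_F livers ranged from 10659 to 28285 with a median of 16324, against 13005 to 23526 with a median of 19127 in WD_F. CDF_F livers ranged from 10150.0 to 34412, with the highest in replicate 4, and CD_F livers from 13604 to 22632. All 4 female groups overlapped for Hp, and likewise for Orm1 and Cebpd. With high folic acid under the western diet (WDF_F against WD_F), 0 of 7 members reached an unadjusted p under 0.05, where 1.44% of all genes did, and the smallest p was that of Lbp (log2 difference 0.18 ± 0.18, SE, limma adjusted p = 0.948). CDF_F against CD_F also had 0 of 7, where 7.78% of all genes did, with Lbp again smallest (-0.21 ± 0.20, limma adjusted p = 0.613). The female interaction had 0 of 7, where 12.9% of all genes did, and the value for Lbp was 0.39 ± 0.27 (limma adjusted p = 0.423). These Lbp values depend on single livers, since without CDF_F replicate 4 they were -0.04 in CDF_F against CD_F and 0.22 in the interaction, and without WD_F replicate 5 the value was 0.083 in WDF_F against WD_F. Whether the male and the female interactions differ was not tested.

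Saa3 was highest among male groups in the fetuses of control diet dams on the low folic acid dose. Its counts were 55.1, 235, 407, 482 and 887 in WD_M livers and 160.5, 221, 292, 323 and 646 in CDF_M livers, against 546, 600.5, 681, 717 and 1328.5 in CD_M livers, each sorted from low to high. WDF_M livers ranged from 124 to 625. The CD_M values lay high, and 1 WD_M and 1 CDF_M library reached into their range. The log2 difference was -1.31 ± 0.61 for WD_M against CD_M (SE, limma adjusted p = 0.737), where 1 of 7 members and 6.65% of all genes reached an unadjusted p under 0.05. It was -1.32 ± 0.61 for CDF_M against CD_M (limma adjusted p = 0.908), where 2 of 7 members and 3.49% of all genes did. The 2 comparisons share the CD_M libraries.

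Several marker lists of other cells, though not all, also had mostly lower values in these comparisons. In CDF_M against CD_M, 13 of 14 neutrophil and granulocyte precursor markers (median log2 difference -0.44), 9 of 9 mesothelial markers (-0.58) and 10 of 10 tested skeletal muscle markers (-1.04) were lower, against a median of -0.01 over all genes. None of them passed an adjusted p of 0.05 by limma, and 5 of the 14, 2 of the 9 and 2 of the 10 reached an unadjusted p under 0.05, where 3.49% of all genes did. In WD_M against CD_M, 12 of 14 neutrophil markers (median -0.26), 8 of 9 mesothelial markers (-0.62) and 9 of 10 muscle markers (-1.35) were lower, while 10 of 12 erythroid markers were higher (0.25). The summed level of 9 mesothelial markers ran from 963 to 1774 in WD_M and from 1090 to 1691 in CDF_M, against 1585 to 3280 in CD_M, and that of 13 muscle markers from 129 to 363 in WD_M and from 130.3 to 251.5 in CDF_M, against 192 to 826 in CD_M. Of 12 lung epithelium markers, 11 were lower in CDF_M against CD_M (median -1.59) and 10 in WD_M against CD_M (-1.65). None of the 12 reached an unadjusted p under 0.05. Kupffer cell and macrophage markers did not move to 1 side. Of 12, 5 were higher and 7 lower in CDF_M against CD_M (median -0.05), with 1 higher at that limit. In WD_M against CD_M 6 were higher and 6 lower (-0.02), with 2 higher at it. The part of these cells in the Saa3 and Socs3 differences was not tested.

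Both Saa3 differences depend on single livers. Without CD_M replicate 4, which had the highest CD_M value and a globin share of 22.5%, the values were -1.09 and -1.11, and neither stayed under an unadjusted p of 0.05. Without WD_M replicate 5, the lowest Saa3 value and the lowest globin share at 7.01%, the difference from CD_M was -0.71 (limma adjusted p = 0.918). In the authors' deposited table for control diet males, Saa3 had a log2 fold change of -0.96, on the authors' own scale, and an adjusted p of 0.270. Of its 18203 genes, 7 were called. Between the sexes, Saa3 had a log2 difference of 0.55 ± 0.31 for female over male livers averaged over the 4 diets (SE, limma adjusted p = 0.999), the smallest p of the 7 members. Over all alternatives of the processing this difference ranged from 0.22 to 0.73. None of the 7 reached an unadjusted p under 0.05 between the sexes, where 3.1% of all genes did.

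Socs3, the feedback inhibitor that cytokine signalling induces through STAT3 (chr11:117966079-117970047, minus strand), had 166, 205, 133.5, 171 and 189 counts in CDF_M livers, against 119.5, 135, 164, 63.8 and 157 in CD_M livers. The ranges overlapped, and the lowest value was that of CD_M replicate 4. The log2 difference was 0.49 ± 0.24 (SE, limma adjusted p = 0.908), and without CD_M replicate 4 it was 0.26 and no longer under an unadjusted p of 0.05. WDF_M livers ranged from 132 to 271 and WD_M livers from 139 to 211. Socs3 and Saa3, both named in CDF_M against CD_M, thus lay on opposite sides in these groups. In the folic acid effect averaged over diet and sex, 0 of 7 members reached an unadjusted p under 0.05, where 2.33% of all genes did, and Socs3 had the smallest p (0.22 ± 0.12, SE, limma adjusted p = 1.00).

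Crp codes for C-reactive protein, which in mice, unlike in humans, rises little in the acute phase (chr1:172698055-172833031, plus strand). Group means were 4723 ± 1282 in WDF_M, 4445 ± 1315 in WD_M, 4981 ± 782 in CDF_M and 5231 ± 972 in CD_M (SD, n = 5 each). They were 4825 ± 1454 in WDF_F and 4381 ± 1252 in WD_F (SD, n = 5 each), against 5277 ± 905 in CDF_F and 5747 ± 717 in CD_F (SD, n = 4 each). The western diet mean lay below the control diet mean at the same dose and sex in 4 of 4 pairs, and in each pair the libraries overlapped. Averaged over dose and sex, the log2 difference of western over control diet was -0.24 ± 0.11 (SE, limma adjusted p = 0.617), and 1 of 7 members and 7.5% of all genes reached an unadjusted p under 0.05. In WD_F against CD_F, where 0 of 7 members and 6.57% of all genes did, Crp had the smallest p with -0.44 ± 0.23 (limma adjusted p = 0.662), or -0.25 without WD_F replicate 5.

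Lbp codes for the protein that carries bacterial lipopolysaccharide to CD14 (chr2:158306493-158332852, plus strand), and it was the steadiest member. Its counts in WDF_F livers were 2312, 2668, 2221, 2829 and 2069.9, against 2392, 1956, 1793 and 1280.1 in CDF_F livers. The groups overlapped, and CDF_F replicate 4 was low. The log2 difference was 0.41 ± 0.19 (SE, limma adjusted p = 0.532), the value of 1 of 7 members where 8.14% of all genes reached that limit. Without CDF_F replicate 4 it was 0.24 and no longer under that limit. In males Lbp averaged 2313 ± 248 in WDF_M, 2115 ± 450 in WD_M, 2079.5 ± 312 in CDF_M and 1946 ± 506 in CD_M (SD, n = 5 each). In females it averaged 2420 ± 317 in WDF_F and 2153 ± 391 in WD_F (SD, n = 5 each). The means were 1855 ± 459 in CDF_F and 2128 ± 450 in CD_F (SD, n = 4 each). Unlike for Crp, each western diet mean lay above the control diet mean at the same dose and sex, and the libraries overlapped in each pair.

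**Figure D3:**
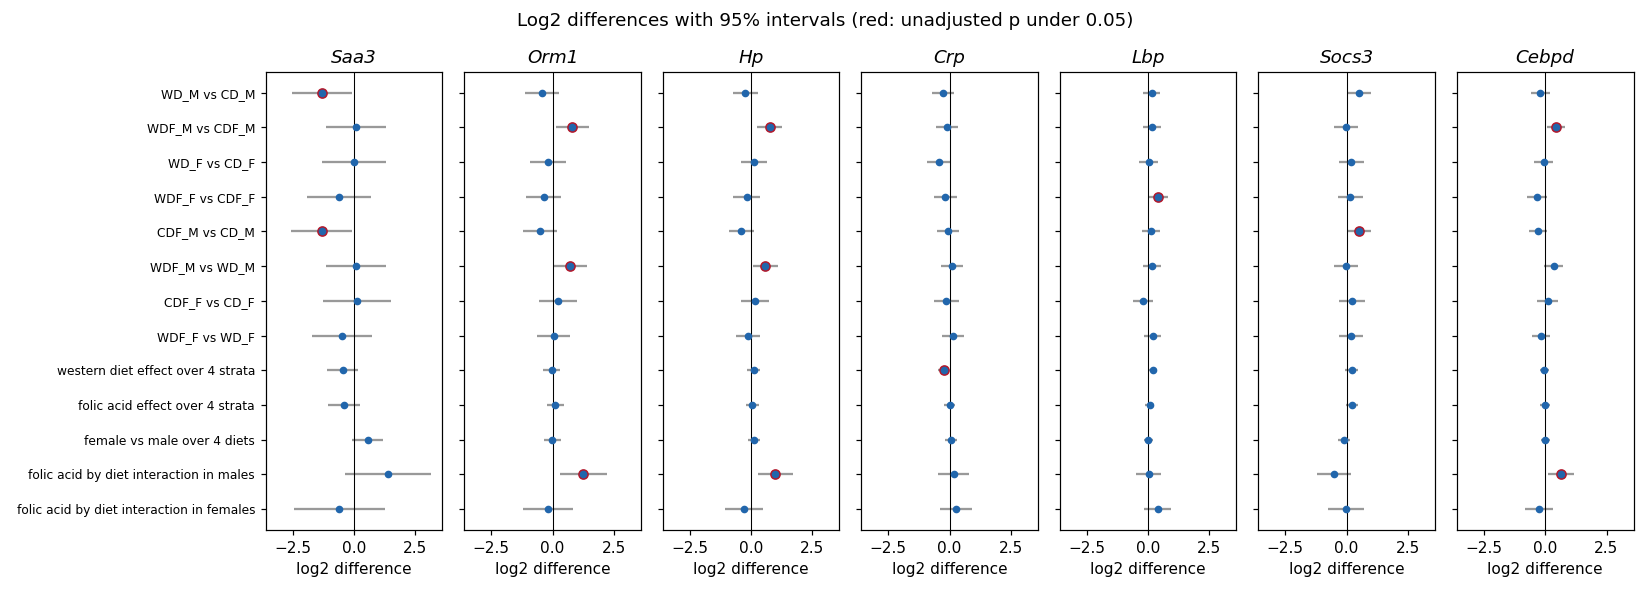
Log2 differences with 95% intervals for the 7 tested members in the 13 comparisons, each taken as the first named group over the second, and as western over control diet, high over low dose or female over male in the pooled effects. Red rings mark an unadjusted limma p under 0.05; no member passed an adjusted p of 0.05, and most intervals include 0.

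The members did not vary as a single block from liver to liver. With each log2 value centred on its group mean, over 38 libraries that share depth and composition between genes, Hp and Cebpd were correlated at r = 0.63 (Spearman rho 0.61), and at 0.47 without the 2 libraries farthest in Hp. Crp and Lbp were correlated at r = 0.61 (rho 0.66). Hp and Socs3 had r = -0.60 (rho -0.58), and Saa3 and Lbp had r = -0.52 (rho -0.54). Orm1 and Cebpd had r = 0.49 over all libraries, but 0.10 within males and 0.76 within females. Without CDF_F replicate 4 and CD_M replicate 4, r was 0.54 for Hp with Cebpd, 0.63 for Crp with Lbp and -0.58 for Hp with Socs3. It was -0.43 for Saa3 with Lbp and 0.36 for Orm1 with Cebpd. Values within a sex were not recomputed without these libraries. These are descriptions, without a test.

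**Figure D4:**
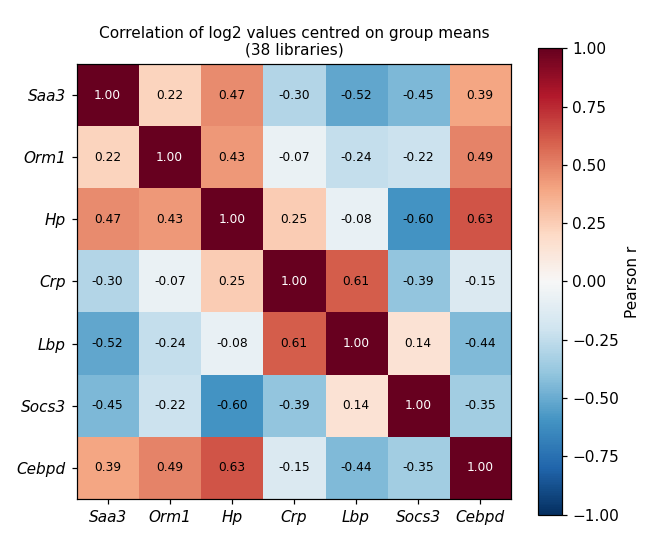
Pearson r between the 7 tested members, from log2 values centred on group means over 38 libraries. Hp with Cebpd and Crp with Lbp are positive, and Hp with Socs3 and Saa3 with Lbp are negative.

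Each member was also set beside 8 measures of the library, namely 5 of composition and the mean log2 level of the tested hepatocyte (13), neutrophil (14) and erythroid (12) markers, all centred in the same way. Crp had its largest r with the mean hepatocyte marker level, at 0.89 (rho 0.86), and Lbp was at 0.78 with it (rho 0.81). Saa3 followed the globin share of the library at r = 0.81 (rho 0.78), or 0.77 without the 2 farthest libraries, and was at 0.75 within males and 0.87 within females. Lbp ran against the share of ribosomal protein genes at r = -0.86 (rho -0.84). Cebpd also had its largest r with that share, but a positive one, at 0.72 (rho 0.62), or 0.61 without the 2 farthest libraries, with 0.61 within males and 0.80 within females, and it was at 0.65 with the mean neutrophil marker level (rho 0.61). Hp had its largest r with the mean neutrophil marker level, at 0.66 (rho 0.61), or 0.55 without the 2 farthest libraries. Orm1 was at 0.60 with the neutrophil markers, with 0.16 within males and 0.89 within females. Socs3 ran against them at r = -0.55 (rho -0.49). Without CDF_F replicate 4 and CD_M replicate 4 the values with the neutrophil markers were 0.59 for Hp, 0.49 for Orm1, 0.52 for Cebpd and -0.42 for Socs3. With the ribosomal protein share they were 0.63 for Cebpd and -0.82 for Lbp. That of Saa3 with globin was 0.78, and those with the hepatocyte markers were 0.90 for Crp and 0.77 for Lbp. All these measures come from the same libraries and share their total.

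**Figure D5:**
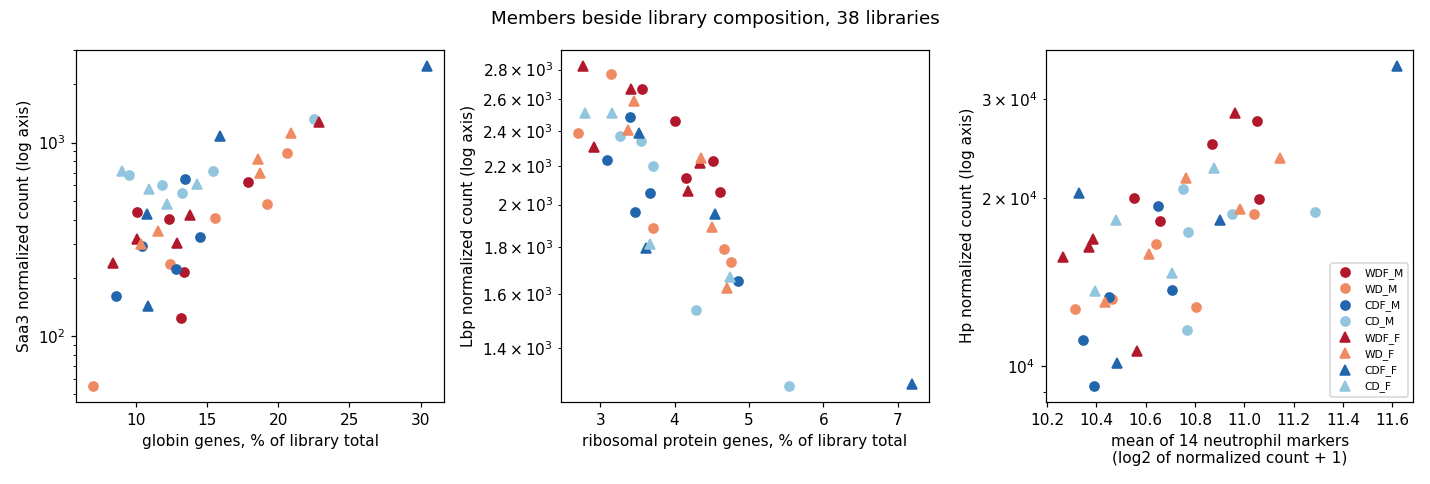
Saa3 against the globin share, Lbp against the ribosomal protein share and Hp against the mean log2 level of 14 neutrophil markers, with normalized counts of the member on log axes. Each point is 1 of 38 libraries; CDF_F replicate 4 lies at the far end of all 3 panels, and Saa3 and Hp are high and Lbp low there.

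The genes whose centred values were most like each member over the 38 libraries included no other member. For Crp they were Il1rap, the accessory chain of the interleukin-1 receptor (r = 0.92), Hsd3b3 (0.86) and Ttpa (0.86). For Lbp they were Acad11 (0.90), the albumin gene Alb (0.89) and Atp2c1 (0.88), and for Hp they were Csad (0.90), Fetub, which codes for a fetuin (0.87), and Apof (0.85). For Saa3 they were Spink1 (0.88), Ube2l6 (0.87) and Tsc22d1 (0.87). For Socs3 they were the mitotic kinase gene Aurkb (0.83), Asnsd1 (0.80) and Fam83d (0.79), and for Cebpd they were Gpihbp1 (0.85), Lrrc51 (0.84) and Spa17 (0.83). Orm1 was least tied to any gene, with Sdc4 (0.67), Tmco6 (0.67) and Gm44805 (0.66). These values were not recomputed without CDF_F replicate 4 and CD_M replicate 4.

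The wider pathway gave no called gene either, in any of 7 lists around these members and with limma adjusted over all genes. Of 34 other positive acute phase proteins, 33 were tested. In WDF_M against WD_M, 25 were higher and 8 lower with a median log2 difference of 0.11, against 0.01 over all genes, and 6 of the 33, all higher, reached an unadjusted p under 0.05, where 8.81% of all genes did. The 2 with the smallest p were both of complement: Cfb, factor B (0.43, adjusted p = 0.455), and C4b, component C4 (1.08, adjusted p = 0.455), by limma. C4b has a near-identical neighbour in mice, so its reads are uncertain. In the pooled western diet effect 19 were higher and 14 lower (median 0.07), with Lrg1, which codes for a leucine-rich glycoprotein of plasma (0.63, adjusted p = 0.234), and Cd14, the lipopolysaccharide receptor to which Lbp delivers (0.37, adjusted p = 0.258), smallest in p. In the pooled folic acid effect 21 were higher and 12 lower (median 0.04), led by Hamp, the iron hormone hepcidin (1.44, adjusted p = 1.00), and Il1rn, the interleukin-1 receptor antagonist (0.30).

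Negative acute phase proteins are plasma proteins that fall in the response. All 12 were tested, and in WDF_M against WD_M 9 were higher and 3 lower, with a median of 0.18. Of the 12, 4 that were higher and 1 that was lower reached an unadjusted p under 0.05, where 8.81% of all genes did. Fetub (0.93, limma adjusted p = 0.421) and the retinol carrier Rbp4 (0.61, limma adjusted p = 0.445) had the smallest p. In this comparison the positive and the negative acute phase proteins thus both had more members higher than lower. Neither pooled effect brought a negative acute phase protein to an unadjusted p under 0.05: with the smallest p, for western diet Gc was at -0.10 and Serpina6 at 0.35, and for folic acid Rbp4 was at 0.14 and Serpinc1 at 0.08.

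Upstream of the members, the 7 of 15 inflammatory cytokines and chemokines that were tested included Cxcl1 (0.59, limma adjusted p = 0.546) and Il1b (0.61, limma adjusted p = 0.565), both higher with western diet over all strata. Osm, a cytokine of the interleukin-6 family, was 0.64 higher in WDF_M than in WD_M (limma adjusted p = 0.514), with Il18 at -0.42. In the pooled folic acid effect Il1b was at 0.40 and Osm at 0.19. Of 20 genes of interleukin-6 family receptors and JAK-STAT3 signalling, 10 were higher and 10 lower in WDF_M against WD_M (median 0.02), with Junb at 0.45 and Lifr at -0.43. In the western diet effect 14 were higher and 6 lower (median 0.06), with Pim1, a STAT-induced kinase gene, at 0.31 (limma adjusted p = 0.353) and Cish at 0.12. In the folic acid effect 9 were higher and 11 lower, with Junb at 0.23 and Cish at 0.12.

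Of 22 genes from interleukin-1, tumour necrosis factor and Toll-like receptors to NF-kB, 14 were higher and 8 lower in WDF_M against WD_M (median 0.04), while the 2 with the smallest p were lower: Tlr4, the lipopolysaccharide receptor (-0.69, limma adjusted p = 0.514), and Ikbkg (-0.45, limma adjusted p = 0.558). Irak4 (-0.19, limma adjusted p = 0.477) and Relb (0.17) led in the western diet effect, and Irak1 (0.09) and Relb (0.14) in the folic acid effect. Of 14 C/EBP and hepatocyte factors, 8 were higher and 6 lower in WDF_M against WD_M (median 0.06), with Foxa3 (0.41, limma adjusted p = 0.514) and Cebpb, the C/EBP factor of acute phase genes (0.77, limma adjusted p = 0.514), smallest in p. In the western diet effect Foxa3 was at -0.15 and Cebpg at -0.10, and in the folic acid effect Dbp was at 0.21 and Foxa3 at 0.11.

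Glucocorticoids act with cytokines on several acute phase promoters. Of 15 genes of the glucocorticoid receptor and its targets, 10 were higher and 5 lower in WDF_M against WD_M, with a median of 0.25. Angptl4, an inhibitor of lipoprotein lipase (0.75, limma adjusted p = 0.336), and Cdkn1a, a cell cycle inhibitor gene (0.56, limma adjusted p = 0.455), had the smallest p. Averaged over strata, Angptl4 was 0.32 higher with high folic acid (limma adjusted p = 1.00) and Pck1 was at 0.81. With western diet 6 were higher and 9 lower, with Cdkn1a at -0.34 (limma adjusted p = 0.258) and Sgk1 at -0.31 (limma adjusted p = 0.320).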

How the data were processed

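Liver RNA of 40 fetuses was read as directional paired ends of 43 nt after poly(A) enrichment, per the labels' protocols. The submitters' processing notes name Trimmomatic 0.39, STAR 2.7.3a, Salmon 1.3.0, DESeq2 1.24 and the build mm10, without role or order. The deposited gene table is a signal scale: it holds read counts that the authors had divided by size factors, as median-ratio factors recomputed from it were 1 in all 40 libraries, so no count model was used and counting intervals cannot be given. The authors also deposited 4 tables of their folic acid comparisons, with a mean normalized count as a signal, a log2 fold change, its standard error (a score column), a p-value and an adjusted p-value.

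A gene was tested if 5 or more of the 38 libraries reached a value of 10. Tests were run on log2(value + 1), which understates changes of low genes. Group means were fitted by limma 3.58.1 (R 4.3.3) with a mean-variance trend, robust moderation and two-sided p-values adjusted by Benjamini-Hochberg over all 15377 genes. The 13 comparisons are the 4 of western against control diet and the 4 of high against low folic acid at the same sex and other factor, the 2 pooled effects, female against male, and the interaction in each sex. The fitting was tested on simulated data. Descriptions and figures used Python 3.11.15, pandas 2.3.3, numpy 2.4.6, biopython 1.88 and matplotlib 3.10.9.

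The members, the 7 pathway lists and the 9 marker lists were chosen with earlier results of these data known, so no list is independent evidence. A member's log2 difference is printed where its unadjusted p is under 0.05, or for the smallest p where none is. The folic acid differences in each diet that make up the male interaction are also printed for Hp, Orm1 and Cebpd. For each member the 3 genes with the highest centred Pearson r are named, and for each pathway list the 2 genes with the smallest p in 3 comparisons; marker lists are given by counts and sums. Gene coordinates and transcript lengths come from the annotation of mm10, and promoter windows from RefSeq. Columns were matched to samples by title; the female CDF column of replicate 1 lacks its sex letter and was taken as the one title left. The libraries' sex labels matched their expression in 40 of 40, and the highest correlation between libraries was 0.982, so none was counted as a copy. Replicate numbers were not used to pair samples. Alternatives were other library sets, scalings, pseudocounts, filters, library weights, a replicate block, leaving out each library and, added after seeing the data, the globin or the ribosomal protein share as a covariate.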

Additional observations from a re-analysis of the deposited data

Results flagged for a closer look

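Of 72 sets of 4 or 5 libraries, 1 per member and group, 10 had a single library at the top that stood apart from the others by Dixon's test at 95%. Saa2 in WDF_M, at 0 throughout, could not be tested. The test assumes normally distributed values and was run on untransformed counts, so how many flags chance would give is not known. In the flagged Saa1 and Saa2 sets 1 library was above 0, which fixes the ratio at 1 whatever its value, so these flags are void. The cause was not tested for any of them.

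For Saa3, WDF_F replicate 3 had 1280.7 normalized counts, against 239.5 to 420.1 in the other 4 libraries of its group, and CD_M replicate 4 had 1328.5, against 546 to 717. Both libraries were high in globin, at 22.9 and 22.5% of the total. For Orm1, WDF_M replicate 5 had 78.8, against 19.5 to 35.8, and CDF_F replicate 4 had 65.6, against 17.8 to 25.8. The second of these is also the library with the highest Saa3, Hp and Cebpd of all 38. In WDF_M replicate 5 Hp, at 18205, was the lowest of its group.

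Crp was at 6626 in CDF_F replicate 1, against 4724 to 4951 in the other 3 libraries. Socs3 was at 265.8 in WD_F replicate 5, against 117 to 148. Saa1 was at 1.44 in WDF_M replicate 1 and listed at 0 in the other 4. Saa2 was at 1.502 in WD_M replicate 4, at 1.69 in CDF_F replicate 3 and at 0.796 in CD_F replicate 1, and listed at 0 in the other libraries of each group; values this low rest on very few reads.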

How the results depend on the processing

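Of 428 counts of members past the adjusted threshold, 426 stayed at 0. With library weights 1 member passed in WDF_M against CDF_M (Cebpd, log2 difference 0.50, adjusted p = 0.0442) and 1 in the male interaction (Hp, 1.06, adjusted p = 0.0468). That setting also called 241 of all genes in WDF_M against CDF_M, 621 in WDF_M against WD_M and 397 in the male interaction, where the fit without weights called 0, 145 in WD_M against CD_M, and 486 in the pooled western diet effect, where it called 7. With the globin share as a covariate 665 genes were called in WDF_M against WD_M, 33 in the male interaction and 60 in the western diet effect; the ribosomal protein share gave 53 in the last. With these 2 covariates no member passed. The western diet count was 3 with all 40 libraries, 11 in 36 libraries, 11 with a pseudocount of 5, and 3 to 53 on leaving out 1 library, the highest without CDF_M replicate 2, which also gave 8 in WDF_M against CDF_M; the cause was not tested.

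On leaving out 1 library, the number of members under an unadjusted p of 0.05 was 1 to 3 in WDF_M against CDF_M, 0 to 3 in WDF_M against WD_M and in CDF_M against CD_M, and 3 to 4 in the male interaction.

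Of 599 values of named members, 593 kept direction and side. Crp reversed with all 40 libraries, to 0.96 in WD_F against CD_F and to 0.48 in the western diet effect, since the 2 libraries otherwise left out, CDF_F replicate 5 and CD_F replicate 4, hold 26.0 and 44.2 counts of Crp. With the ribosomal protein share as a covariate, Lbp reversed to 0.084 in CDF_F against CD_F and to -0.083 in the female interaction. Over all alternatives Hp ranged from 0.49 to 0.69 in WDF_M against WD_M (adjusted p 0.0579 to 1) and from 0.63 to 0.90 in WDF_M against CDF_M (0.0556 to 0.999). Saa3 ranged from -1.70 to -0.71 in WD_M against CD_M and from -1.61 to -0.90 in CDF_M against CD_M.

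Replicate numbers are shared across groups and were not used to pair samples. Of 36 pairs of same-numbered libraries of the same sex and different diets, 12 had a correlation of their deviations over 0.1. In no comparison did all pairs. Same-numbered male and female libraries of a diet were not correlated in this way, so whether they are paired is not known. With the replicate block 0 members passed in every comparison and 2 genes, against 7, in the western diet effect. Depth limits Saa1, Saa2 and Orm1, and with 5 libraries a group the 95% intervals of Saa3 between 2 groups span more than 2 log2 units.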

Other observations

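The 2 libraries left out, CDF_F replicate 5 and CD_F replicate 4, held the members at levels unlike the other 38. Hp was at 2083 and 3277, under the lowest of the 38 at 9226, Lbp at 325 and 414, and Orm1 at 1.08 and 1.41. Cebpd was at 381 and 500.3, the second exceeding the highest of the 38 at 426. Saa3, at 127 and 185, and Socs3, at 161 and 219.8, lay within the range of the 38.

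No marker of other cells passed an adjusted p of 0.05 by limma in the pooled effects. With western diet over all strata, 12 of 12 erythroid markers had higher values (median log2 difference 0.21) and 6 of them reached an unadjusted p under 0.05, where 7.5% of all genes did, whereas 8 of 9 mesothelial markers had lower values (median -0.58), 6 of them at that limit. With high folic acid over all strata 9 of 9 mesothelial markers had lower values (median -0.29) and none reached it, where 2.33% of all genes did. The part of these markers in the members' values was not tested.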
